A study of Mus musculus with 8 samples.

Results

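The genes described here are 42 interferon-stimulated and interferon signalling genes, taken from a list of gene symbols and matched to the identifiers of the count files, of 55450 genes listed there. Of the 42 genes, 39 had enough counts to be tested, among 14641 tested genes in all. RNA with poly(A) tails was sequenced from PyMT-1099 cells, a mouse breast cancer line derived from a mammary tumour driven by the polyoma virus middle T antigen. The 8 libraries form 4 groups of 2: AGPS KO cells with TGF-β, AGPS KO cells untreated, WT parental cells with TGF-β and WT parental cells untreated. TGF-β, the cytokine used to drive epithelial cells towards a mesenchymal state, was given at 2 ng/ml for 10 days in high glucose DMEM with serum. No interferon or virus is named among the treatments. A day is listed only for the libraries with TGF-β, so the part of time in culture in the TGF-β contrasts was not tested. The deleted gene, Agps, encodes an enzyme of the peroxisome (alkylglycerone phosphate synthase) that makes ether lipid precursors. All knockout libraries carry the same line name and only 1 knockout line was analysed here, so an effect of the deletion and a difference between these lines cannot be told apart. No label tells if replicate libraries are of different cultures. The p-values then reflect library-to-library spread that could be purely technical.

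Type I interferons bind a receptor made of the subunits Ifnar1 and Ifnar2, which activates the kinases Jak1 and Tyk2. These phosphorylate STAT proteins such as Stat2, which joins Irf9 in a complex that binds a sequence called the interferon-stimulated response element (ISRE) before the genes it induces. The signal of interferon gamma acts through a shorter element called GAS. The induced genes encode RNA sensors, nucleases, RNA-binding proteins and ubiquitin-like modifiers that restrict viruses, and tumour cells can express them at a low steady level without added interferon.

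Library totals ran from 17007268 to 21311831 counts, and the 42 genes took between 0.0788% and 0.111% of them. Agps averaged 39.8 ± 5.87 CPM (counts scaled to library size) in knockout cells with TGF-β and 31.1 ± 2.52 CPM in untreated knockout cells, against 266 ± 0.98 CPM in parental cells with TGF-β and 344 ± 19.4 CPM in untreated parental cells (SD, n = 2 each), a log2 fold change of knockout over parental cells of -2.74 with TGF-β and -3.47 without (edgeR adjusted p = 2.62e-07 and 5.44e-08). Of the breast epithelial markers, Krt8, Krt18, Cdh1 and Krt7 were read in every group, whereas Epcam was listed at 0 in all 8 libraries. Of 10 immune cell markers, 6 had at most 10 counts over the 8 libraries, of which Cd3e, Adgre1 and Siglech were at 0. The summed level of the 10 was 17.7 to 19 CPM in knockout cells with TGF-β, 32.6 to 33.2 CPM in untreated knockout cells, 28.5 to 30.9 CPM in parental cells with TGF-β and 32.4 to 32.7 CPM in untreated parental cells. Nearly all of this sum came from Csf1r, which fell in both lines, and Cd68, a lysosomal protein of macrophages, which rose in both (406 counts with TGF-β and 98 without in knockout cells, 238 with and 52 without in parental cells). Other markers moved with TGF-β as well. The adhesion gene Cdh1 had 1979 counts with TGF-β and 12775 without in knockout cells, and 4757 with and 23023 without in parental cells. Krt7 had 3283 counts with TGF-β and 2806 without in knockout cells, and 8749 with and 4314 without in parental cells. The summed level of the 6 epithelial markers was 3180 to 3380 CPM with TGF-β and 3160 to 3320 CPM without in knockout cells. In parental cells it was 3030 to 3210 CPM with TGF-β and 4300 to 4690 CPM without. The summed level of 6 fibroblast markers was 189 to 190 CPM in knockout cells with TGF-β, 0.966 to 1.11 CPM in untreated knockout cells, 207 to 227 CPM in parental cells with TGF-β and 1.58 to 1.7 CPM in untreated parental cells. Of these 6, Col1a1, Pdgfrb and Pdgfra rose in both lines, Dcn and Lum had at most 2 counts over the 8 libraries, and Thy1 was at 0. Of 4 endothelial markers, Cdh5 rose in both lines, Pecam1 was not called, and Kdr and Tie1 had at most 10 counts; their sum was 6.71 to 8.24 CPM in knockout cells with TGF-β, 0.557 to 0.773 CPM in untreated knockout cells, 76.5 CPM in both libraries of parental cells with TGF-β and 1.29 to 1.58 CPM in untreated parental cells. The part of these markers in the results below was not tested. In bulk RNA, fewer cells of a type and less RNA per cell cannot be told apart.

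The summed level of the 42 genes was 800.3 and 777 CPM in knockout cells with TGF-β, 1029 and 1030 CPM in untreated knockout cells, 899 and 929 CPM in parental cells with TGF-β and 1107 and 1059 CPM in untreated parental cells. In both lines this sum was therefore lower in each library with TGF-β than in those without it. The sum is weighted towards the most abundant genes and does not show how many of the 42 genes fell. Abundant genes went both ways, with Ifit2 lower and Ifnar1 higher with TGF-β in both lines. Per kilobase of annotated exon, the gene with the highest mean level was Ifnar1 in knockout cells with TGF-β (18.2 CPM per kb), Ifit2 in untreated knockout cells (35 CPM per kb), Samd9l in parental cells with TGF-β (26.3 CPM per kb) and Ifit2 in untreated parental cells (35.2 CPM per kb). The tested gene with the lowest level over the 8 libraries was Mx2 at 0.121 CPM per kb. The 3 genes too low to test were Ifi44, Mx1 and Zbp1. Ifi44 had 0 counts in knockout cells with TGF-β, 0 in untreated knockout cells, 6 in parental cells with TGF-β and 1 in untreated parental cells, summed over 2 libraries each. Mx1, a GTPase that blocks orthomyxoviruses, had 0, 2, 1 and 3 counts in the same 4 groups. Zbp1, a sensor of Z-form nucleic acid, had 6, 4, 19 and 0 counts.

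**Figure D1:**
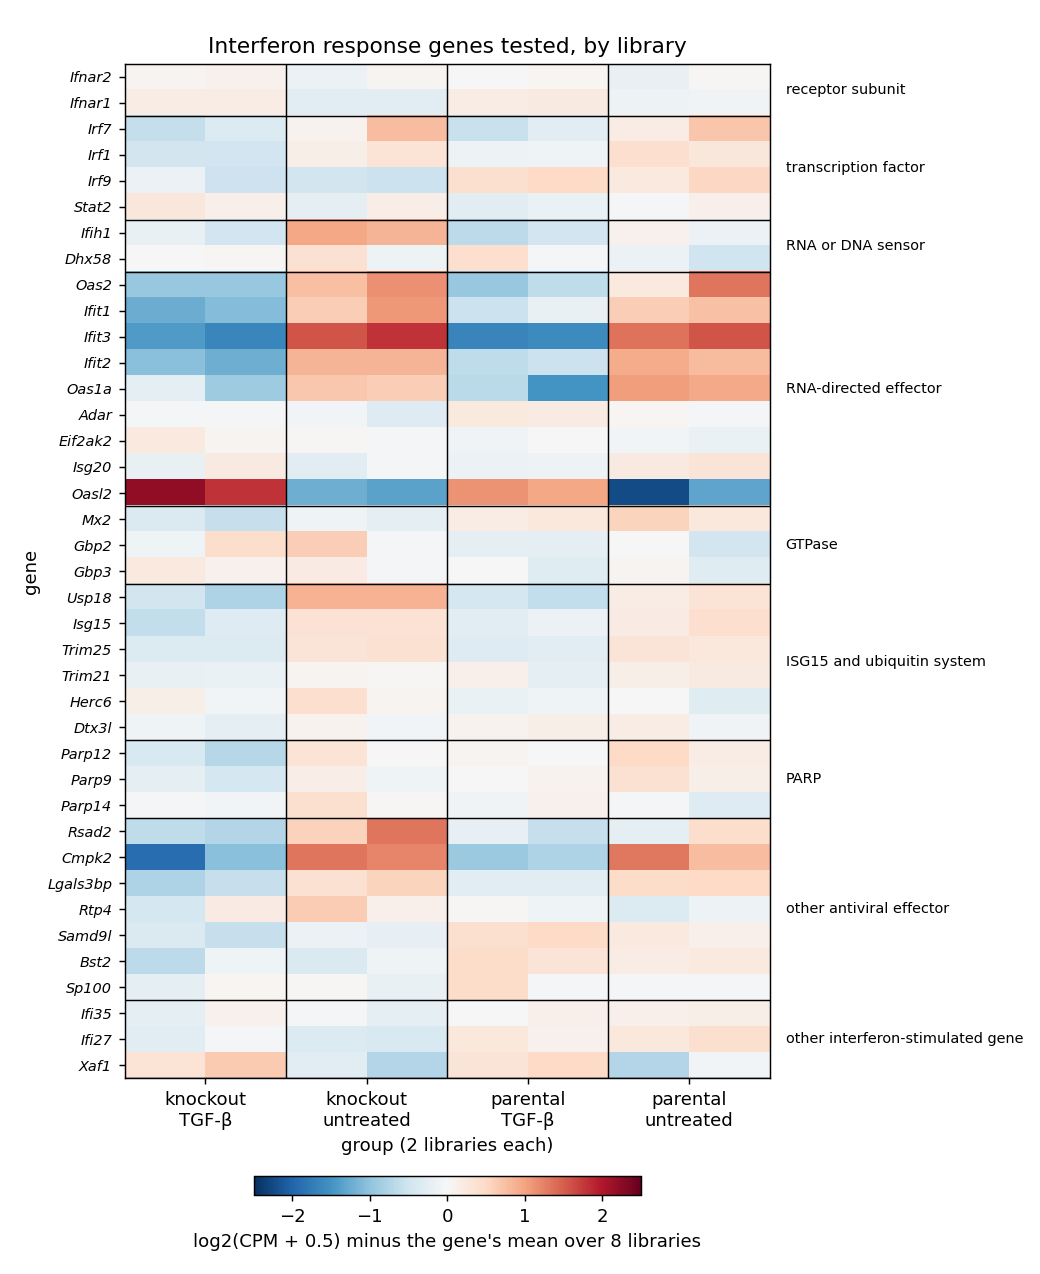
Level of the 39 tested interferon response genes in each of the 8 libraries, as log2(CPM + 0.5) minus the mean of the gene over the libraries; red is above and blue below that mean, and rows are grouped by role. Ifit2, Ifit3, Cmpk2 and Oas2 are lower with TGF-β in all libraries of both lines, and Oasl2 is higher.

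Promoter sequences of RefSeq (build GRCm38.p6, 250 bases before to 50 bases after each annotated start) were matched by symbol for 32 of the 42 genes, in 41 windows. The ISRE core was searched on both strands as GAAA, any 2 bases and a further GAAA. The GAS core was searched as TTC, any 3 bases and then GAA, which reads the same on both strands. An ISRE match was present in 12 of the 41 windows (29.3%), against 1131 of 32851 windows of all genes (3.44%). A GAS match was present in 10 of the 41 windows (24.4%), against 2726 of all windows (8.3%). Among genes lower with TGF-β in parental cells 4 of 11 with a window held an ISRE match, among those not called 8 of 16, and among the 4 higher ones 0, so matches were spread over all outcomes but the small group of higher genes. The 250 bases before the start are printed for Ifit3 and Isg15, which hold ISRE matches, for Ifit2, whose match is a GAS, for Oasl2, the gene that rose most and held neither, and for Gbp3, which holds ISRE matches and was not called. The stretch of Ifit3 lies at chr19:34583279-34583528 on the plus strand with matches that begin 156 and 122 bases before the start, and that of Ifit2 at chr19:34550444-34550693 on the plus strand with its match 241 bases before the start. That of Isg15 lies at chr4:156200819-156201068 on the minus strand with 3 overlapping matches, 78, 72 and 66 bases before the start. Those of Oasl2 and Gbp3 lie at chr5:114896684-114896933 and at chr3:142559794-142560043, both on the plus strand, and the overlapping matches of Gbp3 begin 45 and 39 bases before the start. Isg15 and Gbp3 were chosen for printing after their values were seen. Sequences run 5′ to 3′ on the strand of the gene, and capitals mark ISRE or GAS matches.
Ifit3: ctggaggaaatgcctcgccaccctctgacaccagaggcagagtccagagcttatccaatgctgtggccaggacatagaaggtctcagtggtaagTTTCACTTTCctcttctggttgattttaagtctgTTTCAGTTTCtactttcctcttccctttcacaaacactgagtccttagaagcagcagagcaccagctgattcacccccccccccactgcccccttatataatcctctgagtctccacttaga
Isg15: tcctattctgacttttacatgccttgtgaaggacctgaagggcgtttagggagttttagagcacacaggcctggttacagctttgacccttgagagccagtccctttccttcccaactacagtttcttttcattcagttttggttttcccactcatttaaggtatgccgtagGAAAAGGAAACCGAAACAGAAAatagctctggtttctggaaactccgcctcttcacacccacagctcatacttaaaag
Ifit2: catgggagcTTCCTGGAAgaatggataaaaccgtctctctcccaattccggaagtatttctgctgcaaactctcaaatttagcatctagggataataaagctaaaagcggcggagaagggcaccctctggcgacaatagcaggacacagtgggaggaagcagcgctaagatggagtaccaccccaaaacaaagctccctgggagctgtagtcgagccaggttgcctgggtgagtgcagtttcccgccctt
Oasl2: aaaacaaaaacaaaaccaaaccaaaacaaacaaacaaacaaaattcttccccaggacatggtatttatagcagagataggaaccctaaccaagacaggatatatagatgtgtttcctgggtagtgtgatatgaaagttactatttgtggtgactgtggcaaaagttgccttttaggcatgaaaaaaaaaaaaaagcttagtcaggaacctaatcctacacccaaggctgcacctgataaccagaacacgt
Gbp3: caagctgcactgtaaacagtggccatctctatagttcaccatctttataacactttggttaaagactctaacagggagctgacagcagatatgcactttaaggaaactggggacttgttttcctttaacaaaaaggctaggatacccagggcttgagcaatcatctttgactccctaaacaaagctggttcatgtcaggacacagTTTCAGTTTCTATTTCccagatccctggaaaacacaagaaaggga
A match is a run of letters and not a measured binding site, and a window without one says only that these letters are not in it.

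With TGF-β in parental cells, 13 of the 39 tested genes were lower and 4 were higher (edgeR quasi-likelihood test, Benjamini-Hochberg adjusted p under 0.05 over all tested genes, here termed called). That is 43.6% called, against 42.5% of all 14641 genes, and 33.3% lower against 21.2% of all genes, while 21.3% of all genes were higher. The median log2 fold change of the 39 genes was -0.21, against 0.008 over all genes. In the same contrast Cdh1 and the epithelial marker sum were lower, whereas Krt7 was higher, as given above. The fibroblast and endothelial marker sums were higher. In knockout cells 17 were lower and 3 were higher. There 51.3% were called against 41.4% of all genes and 43.6% were lower against 20.6% of all genes, and 20.9% of all genes were higher; the median was -0.28 against -0.00023 over all genes. Groups did not overlap for 29 of the 39 genes in parental cells and 27 in knockout cells, where 72.1% and 68.8% of all tested genes did not overlap. In parental cells fewer of the 39 genes were called when any parental library was left out, and fewer of all tested genes as well. The same held in knockout cells when any knockout library was left out.

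Of the 39 genes, 12 were lower in both lines, 3 were higher in both (Oasl2, Xaf1 and Ifnar1), and Samd9l was called higher in parental cells and lower in knockout cells. Over all tested genes, 15.9% were lower in both lines, 15.4% were higher in both, 0.232% were called in opposite directions and 47.6% were called in neither line. Isg20 was called only in the parental contrast, Isg15, Rsad2, Parp9 and Parp12 only in the knockout contrast, and 18 genes in neither. Genes called the same way in both lines made up 88.2% of the parental calls and 75% of the knockout calls, against 73.6% and 75.6% over all tested genes. The contrasts in the 2 lines share no library, but they share the estimate of the spread.

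**Figure D2:**
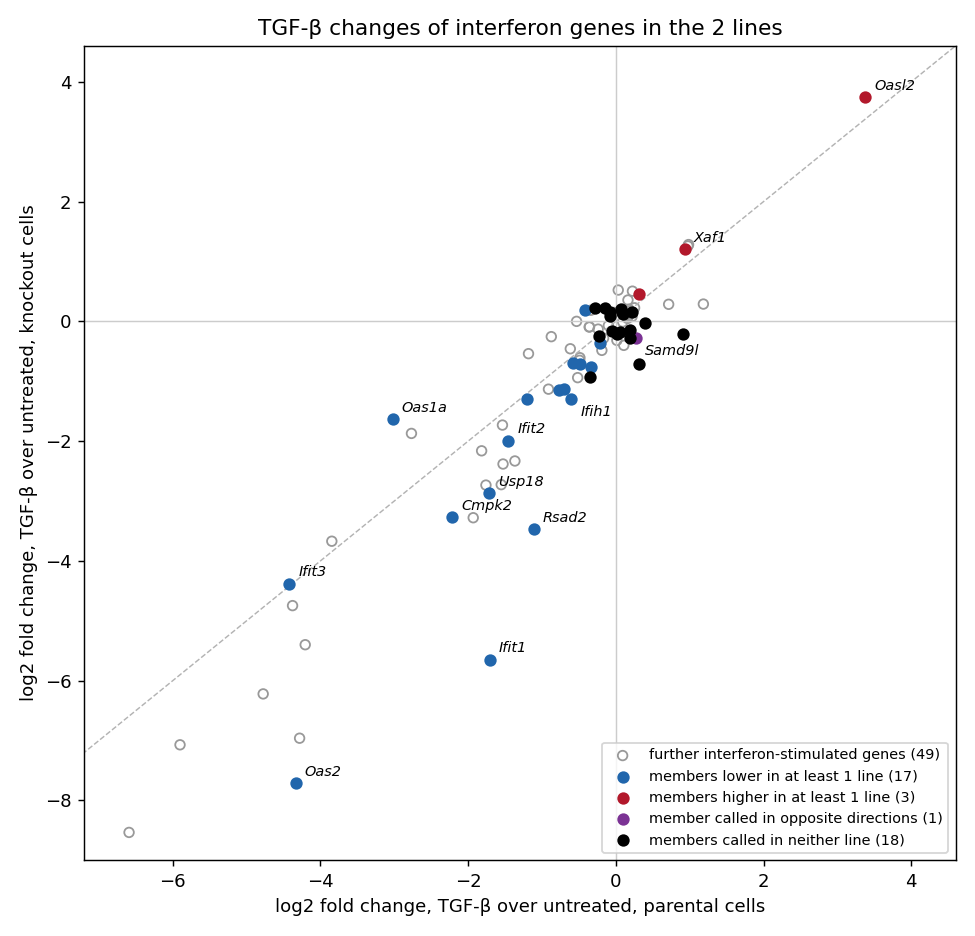
Fitted log2 fold change with TGF-β in parental cells (horizontal) and knockout cells (vertical) for the 39 tested genes (filled) and 49 further interferon-stimulated genes (open); the dashed line marks equal change. Most called genes lie at the lower left, with Oasl2 at the upper right. The fitted values of Ifit1 and Oas2 rest on 3 or fewer counts in a group and mark no exact size. The same holds for some open points, among them Ifit1bl1, Ifit3b and Gbp8.

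Among the genes that fell were the IFIT proteins, which bind viral RNA ends and block their translation. Ifit2 read 36.6 and 32.4 CPM in knockout cells with TGF-β, against 137.3 and 137.3 CPM in untreated knockout cells, and 48.5 and 52.2 CPM in parental cells with TGF-β, against 145 and 131 CPM in untreated parental cells. All 4 treated libraries lay far below all 4 untreated ones. The log2 fold change of Ifit2 was -1.99 (SE 0.10, edgeR adjusted p = 3.38e-08) in knockout cells and -1.46 (SE 0.10, edgeR adjusted p = 3.63e-07) in parental cells.

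Ifit3 read 0.404 and 0.277 CPM in knockout cells with TGF-β, against 6.66 and 7.89 CPM in untreated knockout cells, and 0.265 and 0.298 CPM in parental cells with TGF-β, against 5.64 and 6.68 CPM in untreated parental cells. Every treated library was under 1 CPM and every untreated one over 5. The log2 fold change of Ifit3 was -4.38 in knockout cells (SE 0.29, edgeR adjusted p = 3.06e-07) and -4.42 in parental cells (SE 0.32, edgeR adjusted p = 5.74e-07). About 51.2% of its 50-base stretches also occur in other genes, mainly its neighbour Ifit3b, and no label or file header says how reads shared by such a pair were counted. With Ifit3 and Ifit3b summed, the counts were 17 in knockout cells with TGF-β, 950 in untreated knockout cells, 13 in parental cells with TGF-β and 415 in untreated parental cells, and the log2 fold changes were -5.62 and -4.96 in knockout and parental cells.

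Ifit1, which shares 7.13% of its stretches with other genes, had 1 count in knockout cells with TGF-β, 70 in untreated knockout cells, 15 in parental cells with TGF-β and 50 in untreated parental cells, each summed over 2 libraries. It was called lower in both lines (edgeR adjusted p = 5.35e-05 in knockout cells and 0.00918 in parental cells). The ratio of counts in knockout cells was 62.7-fold lower with TGF-β, with an exact 95% interval of 10.9 to 2510-fold for counting error only, and the log2 fold change in parental cells was -1.70 (SE 0.45). Of the treated knockout libraries the first had 0 counts and the second 1, and the fitted knockout value was -4.74 without the first and -7.99 without the second. The parental call was lost without the first TGF-β library (log2 fold change -1.36, edgeR adjusted p = 0.0957).

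The oligoadenylate synthetases moved in opposite directions. Oas1a and Oas2 make oligoadenylates that switch on the RNA-degrading enzyme RNase L. Oasl2 belongs to the same family and carries a ubiquitin-like tail. Oasl2 read 19.8 and 14.7 CPM in knockout cells with TGF-β, against 1.35 and 1.21 CPM in untreated knockout cells, and 8.96 and 7.92 CPM in parental cells with TGF-β, against 0.422 and 1.23 CPM in untreated parental cells. The treated libraries lay above every untreated one. The log2 fold change was 3.75 (SE 0.29, edgeR adjusted p = 9.4e-07) in knockout cells and 3.38 (SE 0.33, edgeR adjusted p = 8.6e-06) in parental cells, and the parental value was 2.77 without the first untreated parental library and 4.30 without the second.

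Oas1a averaged 0.702 ± 0.366 CPM in knockout cells with TGF-β and 2.23 ± 0.063 CPM in untreated knockout cells, and 0.351 ± 0.328 CPM in parental cells with TGF-β and 2.99 ± 0.169 CPM in untreated parental cells (SD, n = 2 each). Its log2 fold change was -1.64 (SE 0.42) in knockout cells and -3.02 (SE 0.47) in parental cells (edgeR adjusted p = 0.00822 and 0.000322). Without the second treated knockout library the knockout value was -1.20 with an edgeR adjusted p of 0.0821, and without the first it was -2.31; the parental value was -4.58 and -2.35 without the first and the second treated parental library. Oas1a shares 57.6% of its 50-base stretches with other genes, mainly Oas1g, and the sum of both genes had log2 fold changes of -1.80 and -2.51 in knockout and parental cells. Oas2 had 0 counts in knockout cells with TGF-β and 58 in untreated knockout cells, which is at least 17.3-fold lower at a limit of 3 counts over the group. In parental cells it had 2 counts with TGF-β and 45 without, a ratio of 22.3-fold lower with an exact 95% interval of 5.81 to 189-fold for counting error only. The parental counts by library were 0 and 2 with TGF-β, against 12 and 33 without. The fitted parental log2 value of Oas2 was -4.34, and it was -3.34 and -7.62 without the first and the second treated library and -4.96 and -3.35 without the first and the second untreated one.

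Of the other genes whose products act on RNA, Isg20 was called in parental cells and Eif2ak2 and Adar in neither line. Isg20, an RNA exonuclease, averaged 20.6 ± 0.201 CPM with TGF-β and 27.5 ± 1.15 CPM without in parental cells (log2 fold change -0.41, SE 0.15, edgeR adjusted p = 0.0417), and 23.1 CPM with TGF-β and 20.2 CPM without in knockout cells, where the log2 value was 0.20 (SE 0.15). Its parental call was lost without any 1 of the 4 parental libraries (edgeR adjusted p from 0.0581 to 0.16), under upper quartile scaling (0.0614) and with DESeq2 (DESeq2 adjusted p = 0.0529). Eif2ak2, the kinase PKR that halts translation on double-stranded RNA, had log2 values of 0.16 and 0.09 in knockout and parental cells. Adar, which edits adenosine in double-stranded RNA, had 0.15 and 0.22, and overlaps Chrnb2 on the opposite strand over 16.8% of its exons.

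**Figure D3:**
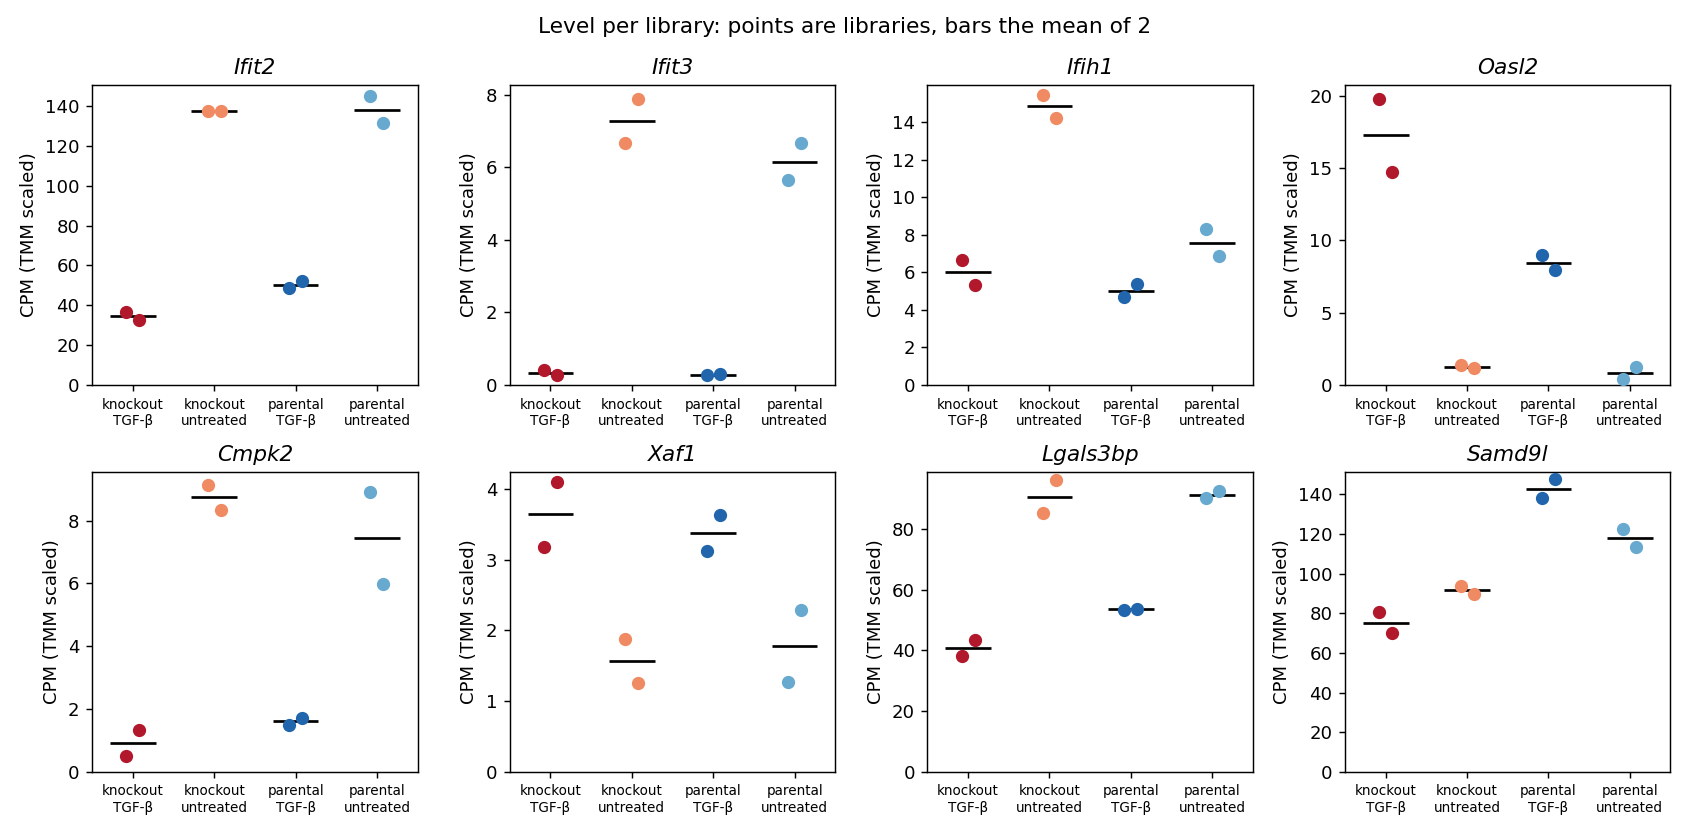
CPM in each library for the 7 genes that were at or above 1 in mean log2 CPM and were called with a log2 fold change of 1 or more in size, and for Samd9l, which was added after its values were seen; points are libraries and bars the mean of 2, with axes that start at 0. Ifit2, Ifit3, Ifih1, Cmpk2 and Lgals3bp are lower and Oasl2 and Xaf1 higher with TGF-β in both lines, while Samd9l moves in opposite directions.

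Cmpk2, a mitochondrial nucleoside monophosphate kinase, read 0.506 and 1.33 CPM in knockout cells with TGF-β, against 9.13 and 8.35 CPM in untreated knockout cells, and 1.48 and 1.73 CPM in parental cells with TGF-β, against 8.91 and 5.97 CPM in untreated parental cells. No treated library reached 2 CPM and no untreated one was under 5. The log2 fold change of Cmpk2 was -3.26 (SE 0.34, edgeR adjusted p = 1.13e-05) in knockout cells and -2.22 (SE 0.32, edgeR adjusted p = 0.00016) in parental cells, and the knockout value was -4.09 without the second treated library. Rsad2, its neighbour on chromosome 12, encodes viperin, which makes a nucleotide that ends viral RNA chains. Rsad2 averaged 0.131 ± 0.0289 CPM with TGF-β and 1.53 ± 0.727 CPM without in knockout cells (log2 fold change -3.47, SE 0.64, edgeR adjusted p = 0.000965, and -2.88 without the second untreated library). In parental cells it averaged 0.275 and 0.624 CPM with and without TGF-β and was not called (log2 value -1.11, SE 0.66).

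Lgals3bp, a secreted glycoprotein that binds galectins, read 38.1 and 43.3 CPM in knockout cells with TGF-β, against 85.1 and 96.0 CPM in untreated knockout cells, and 53.3 and 53.7 CPM in parental cells with TGF-β, against 90.0 and 92.5 CPM in untreated parental cells. The treated libraries of both lines were below every untreated library. Its log2 fold change was -1.15 (SE 0.10, edgeR adjusted p = 2.94e-06) in knockout cells and -0.77 (SE 0.10, edgeR adjusted p = 7.95e-05) in parental cells.

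Samd9l, a cytoplasmic restriction factor that inhibits translation and growth, read 80.8 and 69.9 CPM in knockout cells with TGF-β, against 93.7 and 89.8 CPM in untreated knockout cells, and 138 and 148 CPM in parental cells with TGF-β, against 122 and 114 CPM in untreated parental cells. Treated libraries were thus the lowest 2 of the knockout line and the highest 2 of the parental line. This gave a log2 fold change of -0.28 (SE 0.10, edgeR adjusted p = 0.0346) in knockout cells and 0.27 (SE 0.10, edgeR adjusted p = 0.0372) in parental cells. Without either parental TGF-β library, which is not part of the knockout contrast, the knockout log2 value stayed at -0.28. Both calls of Samd9l lay near the threshold and were lost when single libraries were left out. The parental one was lost without any 1 of the 4 parental libraries (edgeR adjusted p from 0.0523 to 0.235) and with no filter on low counts (0.0764), and the knockout one without either parental TGF-β library, either untreated knockout library or the second treated one (0.0594 to 0.248). The knockout call was also lost in a fit of its 4 libraries alone (edgeR adjusted p = 0.069) and with DESeq2 (DESeq2 adjusted p = 0.0601). Of the other antiviral genes, Bst2 (tetherin, which holds virions at the cell surface), Rtp4 and Sp100 were not called with TGF-β in either line, with log2 values from -0.71 to 0.40.

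Among the transcription factors, Irf1 and Irf7 fell in both lines while Irf9 and Stat2 were not called. Irf7, the main inducer of interferon alpha genes, averaged 0.825 ± 0.166 CPM with TGF-β and 2.02 ± 0.813 CPM without in knockout cells, and 0.877 ± 0.192 CPM with TGF-β and 2.02 ± 0.622 CPM without in parental cells, with log2 fold changes of -1.30 (SE 0.39) and -1.20 (SE 0.40). The knockout call of Irf7 was lost without the second untreated library (edgeR adjusted p = 0.193) or either treated one (0.141 and 0.0545), and the parental call without the second untreated library (0.187) or either treated one (0.183 and 0.0666). With DESeq2 neither call of Irf7 held (DESeq2 adjusted p = 0.0524 in knockout cells and 0.0756 in parental cells). Irf1 averaged 40.4 ± 0.478 CPM with TGF-β and 66.4 ± 6.49 CPM without in knockout cells, and 51.4 ± 0.604 CPM with TGF-β and 71.6 ± 5.13 CPM without in parental cells. Its log2 fold changes were -0.72 and -0.48 (edgeR adjusted p = 0.000158 and 0.00271). Irf9 and Stat2, which act together at the ISRE, had log2 values of 0.20 and 0.22 in knockout cells and 0.07 and -0.28 in parental cells.

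Ifih1, the double-stranded RNA sensor MDA5, read 6.67 and 5.32 CPM in knockout cells with TGF-β, against 15.4 and 14.2 CPM in untreated knockout cells, and 4.66 and 5.36 CPM in parental cells with TGF-β, against 8.33 and 6.85 CPM in untreated parental cells. The untreated knockout libraries stood above the other 6. The log2 fold change was -1.30 (SE 0.17, edgeR adjusted p = 8.63e-05) in knockout cells and -0.60 (SE 0.19, edgeR adjusted p = 0.0219) in parental cells, and the parental call was lost without the first untreated (edgeR adjusted p = 0.127) or the first treated parental library (0.147). Dhx58, the related helicase LGP2, was not called in either line, with log2 values of -0.21 (SE 0.43) in knockout cells and 0.92 (SE 0.47) in parental cells.

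In the ISG15 and ubiquitin system, Usp18 and Trim25 fell in both lines, Isg15 fell in knockout cells, and Trim21, Herc6 and Dtx3l were not called. Usp18, which removes ISG15 from proteins and dampens the interferon receptor, averaged 0.182 ± 0.1 CPM with TGF-β and 1.40 ± 0.00599 CPM without in knockout cells, and 0.222 ± 0.061 CPM with TGF-β and 0.753 ± 0.0954 CPM without in parental cells. Its log2 fold changes were -2.87 (SE 0.44, edgeR adjusted p = 0.000285) and -1.71 (SE 0.49, edgeR adjusted p = 0.0151). The parental call of Usp18 was lost without the second untreated library (0.073) or either treated one (0.0567 and 0.105), each an edgeR adjusted p, and with DESeq2 (DESeq2 adjusted p = 0.0975), and the knockout value was -3.58 without the first treated library. Trim25, the ligase that activates the RNA sensor RIG-I, averaged 100.3 ± 0.662 CPM with TGF-β and 162 ± 4.72 CPM without in knockout cells, and 104 ± 3.63 CPM with TGF-β and 156 ± 5.28 CPM without in parental cells, log2 fold changes of -0.69 and -0.58 (edgeR adjusted p = 3.16e-05 and 0.000133). Isg15, the ubiquitin-like protein itself, averaged 0.906 ± 0.208 CPM with TGF-β and 1.99 ± 0.0108 CPM without in knockout cells (log2 fold change -1.14, SE 0.29, edgeR adjusted p = 0.00883, and 0.084 without the first treated library), a call lost with DESeq2 too (DESeq2 adjusted p = 0.066). In parental cells Isg15 averaged 1.18 and 1.92 CPM with and without TGF-β and was not called (log2 value -0.70, SE 0.29). Trim21, Herc6, the main ISG15 ligase of the mouse, and Dtx3l had log2 values from -0.24 to 0.05 over both lines.

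The ADP-ribosyltransferases Parp12 and Parp9 fell in knockout cells, and none of the 3 was called in parental cells. Parp12 averaged 7.65 ± 1.34 CPM with TGF-β and 13.1 ± 2.18 CPM without in knockout cells (log2 fold change -0.77, SE 0.18, edgeR adjusted p = 0.0053, and 0.0596 without the second treated library), and had a log2 value of -0.33 (SE 0.18) in parental cells. Parp14, the third, had log2 values of -0.28 (SE 0.15) and 0.19 (SE 0.16) in knockout and parental cells. Parp9, the partner of Dtx3l, averaged 28.2 ± 2.92 CPM with TGF-β and 36.3 ± 4.98 CPM without in knockout cells (log2 fold change -0.37, SE 0.13). That call, at an edgeR adjusted p of 0.043, was lost under RLE or upper quartile scaling, with DESeq2, in a fit of its 4 libraries alone, and without either treated knockout library (0.0546 and 0.255), the first untreated knockout library (0.275) or either treated parental library (0.0671 and 0.0669). Parp9 and Dtx3l overlap each other on opposite strands over 9.4% and 8% of their exons, and no source used here says whether strand was counted.

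The GTPases Gbp2, Gbp3 and Mx2 were not called with TGF-β, with log2 values from -0.93 to 0.16. Summed over 2 libraries, Gbp3 had 14 to 23 counts in a group and Mx2 6 to 26, so a missing call says little for them. Gbp2 and Gbp3 hold ISRE matches before their starts. Of the remaining genes Xaf1, which promotes cell death by binding the inhibitor XIAP, rose in both lines. Xaf1 read 3.18 and 4.10 CPM in knockout cells with TGF-β, against 1.88 and 1.25 CPM in untreated knockout cells, and 3.13 and 3.63 CPM in parental cells with TGF-β, against 1.27 and 2.28 CPM in untreated parental cells. All treated libraries were above 3 CPM and all untreated ones under it. The fitted log2 difference was 1.21 (SE 0.31, edgeR adjusted p = 0.00805) in knockout cells and 0.94 (SE 0.32, edgeR adjusted p = 0.0328) in parental cells. The knockout call was lost without the second untreated (edgeR adjusted p = 0.0612) or second treated library (0.0685), and the parental one without the first untreated (0.223, log2 value 0.55) or either treated library (0.0702 and 0.153), or with DESeq2 (DESeq2 adjusted p = 0.064). Ifi27 and Ifi35 were not called, with log2 values from -0.15 to 0.22.

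Of the receptor subunits, Ifnar1 rose in both lines and Ifnar2 was not called. Ifnar1 averaged 108 ± 0.283 CPM with TGF-β and 78.2 ± 1.14 CPM without in knockout cells, and 109 ± 1.81 CPM with TGF-β and 88.0 ± 2.09 CPM without in parental cells. It rose by 0.46 (SE 0.08, edgeR adjusted p = 0.000698) and 0.31 (SE 0.08, edgeR adjusted p = 0.00905) on the log2 scale, and the parental call was lost without the first untreated (0.0613) or either treated parental library (0.0538 and 0.0841). Ifnar2 had log2 values of 0.12 and 0.10 (SE 0.12 each) in knockout and parental cells.

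Without TGF-β, the knockout and parental lines differed in 4 of the 39 genes, 10.3% against 13.7% of all genes, a share not above that of all genes. Of these, 1 was higher (4.72% of all genes were) and 3 were lower (8.94% of all genes were), the median log2 difference was -0.0087, and groups did not overlap for 19 genes (50.7% of all tested genes). Ifih1 averaged 14.8 ± 0.855 CPM in knockout cells and 7.59 ± 1.04 CPM in parental cells (log2 fold change 0.96, SE 0.17, edgeR adjusted p = 0.00298). Irf9 averaged 3.65 ± 0.17 CPM in knockout cells and 7.11 ± 1.04 CPM in parental cells (-0.96, SE 0.20, edgeR adjusted p = 0.00864). Ifi27, a small hydrophobic membrane protein, averaged 16.7 ± 0.239 CPM in knockout cells and 27.4 ± 1.96 CPM in parental cells (-0.71, SE 0.12, edgeR adjusted p = 0.00279). Samd9l averaged 91.8 ± 2.76 CPM in knockout cells and 118 ± 6.29 CPM in parental cells (-0.36, SE 0.10, edgeR adjusted p = 0.0273), a call lost without the first parental untreated library (0.133), either untreated knockout library (0.0618 and 0.111) or either parental TGF-β library (0.0524 and 0.0523), or in a fit of the 4 untreated libraries alone (0.0718). Ifit2 averaged 137 CPM in knockout cells and 138 CPM in parental cells, with a log2 value of -0.01 (SE 0.09). The sum of Ifit3 and Ifit3b was higher in knockout cells (log2 fold change 0.95, SE 0.20, edgeR adjusted p = 0.00809), whereas Ifit3 alone was not called (0.24, SE 0.19).

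With TGF-β, 9 of the 39 genes were lower and 1 was higher in knockout cells than in parental cells. This is 25.6% called against 17.9% of all genes, where 11.1% of all genes were lower and 6.82% were higher. The median log2 difference was -0.27, or -0.16 with Oas2 set to its limit, since it had 0 counts in knockout cells and 2 in parental cells, and groups did not overlap for 24 genes (61.3% of all tested genes). Most of the 10 calls were lost when any 1 library of the contrast was left out. That leaves 1 library in a group, and fewer of all tested genes were called then as well. Samd9l alone of the 10 kept its call under every alternative tried. It averaged 75.3 ± 7.71 CPM in knockout cells with TGF-β and 143 ± 6.78 CPM in parental cells with TGF-β (log2 fold change -0.92, SE 0.10, edgeR adjusted p = 9.53e-05). Stat2 averaged 37.6 ± 2.75 CPM in knockout cells and 27.9 ± 1.67 CPM in parental cells, both with TGF-β. It was not called (log2 value 0.43, SE 0.14, edgeR adjusted p = 0.0534). Under RLE or upper quartile scaling 2 genes were higher and 9 lower, where 2630 and 2622 of all tested genes were called. With DESeq2 2 were higher and 5 lower, where 2228 of all tested genes were called.

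Ifit2 averaged 34.5 ± 3.03 CPM in knockout cells with TGF-β and 50.4 ± 2.66 CPM in parental cells with TGF-β (log2 fold change -0.54, SE 0.10, edgeR adjusted p = 0.0033, and 0.0517 without the second treated knockout library). Oasl2 was the higher gene, at 17.3 ± 3.55 CPM in knockout cells and 8.44 ± 0.73 CPM in parental cells (1.03, SE 0.23, edgeR adjusted p = 0.0098). The log2 values of the other lower genes were -0.83 for Irf9, -0.39 for Lgals3bp, -0.35 for Irf1, -0.60 for Parp12, -0.80 for Bst2 and -1.78 for Mx2. Ifit1 had 1 count in knockout cells and 15 in parental cells with TGF-β, a ratio of 15.9-fold lower with an exact 95% interval of 2.45 to 670-fold for counting error only. Without the first and the second parental TGF-β library the edgeR adjusted p was 0.0572 and 0.0934 for Oasl2, 0.0658 and 0.0951 for Irf9, 0.115 and 0.124 for Lgals3bp, 0.165 and 0.196 for Irf1, 0.196 and 0.135 for Parp12, 0.123 and 0.0631 for Bst2 and 0.162 and 0.196 for Mx2, and it was 0.121 for Ifit1 without the second. Without the first knockout TGF-β library it was 0.113 for Oasl2, 0.143 for Lgals3bp, 0.125 for Irf1, 0.0585 for Parp12, 0.135 for Bst2, 0.102 for Mx2 and 0.131 for Ifit1. Without the second it was 0.135 for Irf9, 0.19 for Irf1, 0.293 for Parp12, 0.247 for Mx2 and 0.0528 for Ifit1. The fitted log2 value of Ifit1, -3.70 with all libraries, was -2.79 without the first and -6.02 without the second knockout TGF-β library. The call of Mx2 was also lost without any 1 of the 4 untreated libraries (edgeR adjusted p from 0.0561 to 0.0635) and without the chromosomes that differ between the lines (0.0503). DESeq2 did not call Irf1 (0.0645), Mx2 (0.25), Ifit1 (0.0693) or Parp12 (0.0566), each a DESeq2 adjusted p. Parp12 was lost with limma voom as well (limma adjusted p = 0.0557), and Irf1 with no filter on low counts (edgeR adjusted p = 0.0505). Bst2 lies on chromosome 8, whose 810 tested genes had a median log2 difference between the lines of -0.47 with TGF-β, and Adar, Gbp2 and Gbp3 lie on chromosome 3, whose 764 tested genes had -0.30; the part of these chromosomes in the values was not tested.

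**Figure D4:**
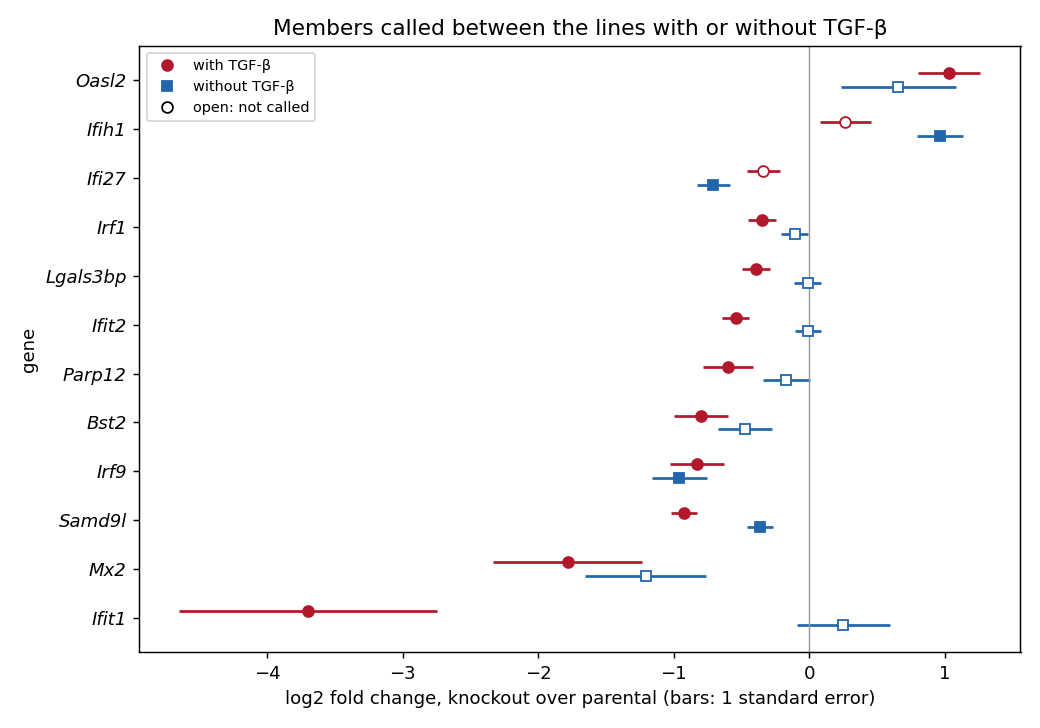
Log2 fold change of knockout over parental cells, with TGF-β (circles) and without (squares), for the 12 genes called in at least 1 of these contrasts; bars are 1 standard error and open symbols were not called. Irf9 and Samd9l are lower under both conditions, Ifih1 is called higher only without TGF-β, and the value of Ifit1 with TGF-β rests on 1 count in knockout cells.

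The change with TGF-β itself was compared between the lines by the difference of the log2 fold changes, knockout minus parental. None of the 39 genes passed (edgeR), against 2.4% of all genes, and 8 had an unadjusted p under 0.05. DESeq2 called 1 of the 39, Samd9l, and limma voom 0. The edgeR test called Samd9l under upper quartile scaling, and Ifit1, Ifit2 and Samd9l with no filter on low counts and with a replicate block. DESeq2 and each of these edgeR settings also called more of all tested genes. The lowest edgeR adjusted p was 0.0605, for Samd9l (difference -0.56, SE 0.14). Ifit2 had a difference of -0.54 (SE 0.14, edgeR adjusted p = 0.0752), Ifih1 -0.70 (SE 0.25), Lgals3bp -0.38 (SE 0.14), Rsad2 -2.36 (SE 1.02), Isg20 0.61 (SE 0.21) and Stat2 0.50 (SE 0.20), and Ifit1 was the remaining gene of the 8. Genes called in a single line, such as Isg15, Rsad2, Parp9 and Parp12, were therefore not shown to respond differently between the lines.

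Beside the 42 genes, 100 others of the pathway were read from the same fit. Of 13 interferon ligands and further receptors, 9 ligands were at or near 0: Ifnb1 had 1 count and Ifng 5 counts over the 8 libraries, and Ifna2, Ifna4, Ifna5, Ifne, Ifnk, Ifnl2 and Ifnl3 had 0. The 4 receptor genes were tested. Ifnlr1, a subunit of the interferon lambda receptor, averaged 11.6 ± 0.777 CPM with TGF-β and 30.1 ± 1.86 CPM without in knockout cells, and 7.04 ± 0.0922 CPM with TGF-β and 22.2 ± 1.69 CPM without in parental cells, log2 fold changes of -1.37 and -1.65. In knockout and parental cells the log2 fold changes were -0.69 and -0.85 for Ifngr2 and 0.91 and 0.53 for Il10rb, the shared partner of Ifnlr1, and Ifngr1 fell in knockout cells (-0.57). Knockout cells had more Ifnlr1 RNA than parental cells, by 0.73 with TGF-β and 0.44 without on the log2 scale.

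Of 11 kinases, STAT proteins and feedback genes, 3 fell and 2 rose in knockout cells with TGF-β and 5 fell and 2 rose in parental cells. That is 45.5% called in knockout cells, against 41.4% of all genes, and 63.6% in parental cells, against 42.5% of all genes. Jak2 averaged 1743 ± 170 CPM with TGF-β and 1162 ± 100 CPM without in knockout cells, and 1170 ± 14.3 CPM with TGF-β and 716 ± 25.7 CPM without in parental cells, rises of 0.59 and 0.71 on the log2 scale. In knockout and parental cells the log2 fold changes were 0.63 and 0.34 for Stat3, -0.54 and -0.38 for Pias1, and -0.65 and -0.71 for Ptpn6. In parental cells they were -1.08 for Socs3, a feedback inhibitor of STAT signalling, and -0.38 for Tyk2. Between the lines, Jak2 and Ptpn6 were higher in knockout cells with TGF-β (0.57 and 0.90) and without (0.70 and 0.84).

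Of 16 genes of nucleic acid sensing and interferon induction, 14 were tested. In knockout cells 7 fell and 3 rose with TGF-β, and in parental cells 5 fell and 4 rose. These are 71.4% and 64.3% called, with 41.4% and 42.5% of all genes called in the same contrasts. Among those that fell in both knockout and parental cells, the log2 fold changes were -0.56 and -0.36 for Ddx58, the RNA sensor RIG-I, -0.58 and -0.89 for the kinase gene Ikbke, and -0.66 and -0.53 for Irf2. The endosomal sensor gene Tlr3 fell in knockout cells (-0.64). Samhd1, which depletes nucleotides, rose by 0.33 and 0.84 and Aim2, a DNA sensor, rose by 0.76 and 0.52.

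Of 60 further interferon-stimulated genes, 49 were tested. In knockout cells 21 fell and 3 rose with TGF-β, and in parental cells 22 fell and 1 rose, with median log2 changes of -0.28 and -0.36. In knockout cells 49% were called, against 41.4% of all genes, and in parental cells 46.9%, against 42.5%, while 20.6% and 21.2% of all genes fell. Gbp4, a guanylate-binding GTPase, averaged 1.09 ± 0.108 CPM with TGF-β and 46.1 ± 2.71 CPM without in knockout cells, and 3.73 ± 1.22 CPM with TGF-β and 68.3 ± 2.08 CPM without in parental cells, log2 fold changes of -5.40 and -4.21. In knockout and parental cells the log2 fold changes were -4.75 and -4.38 for Oas1c, -2.73 and -1.55 for Gbp9, and -2.38 and -1.53 for Rnf213, a large ubiquitin ligase. Ifit1bl1 had 1 count with TGF-β and 519 without in knockout cells and 2 with TGF-β and 219 without in parental cells, and Gbp8 had 2 and 314, and 21 and 418. Between the lines 6 of the 49 were lower and 2 higher in knockout cells with TGF-β, and 7 were lower and 3 higher without it. The shares called were 16.3% with TGF-β, against 17.9% of all genes, and 20.4% without, against 13.7% of all genes. Gbp4 was lower in knockout cells with TGF-β (-1.76 on the log2 scale) and without it (-0.57), and Gbp9 was lower with TGF-β (-1.59). In the test of the difference between the lines, the lowest edgeR adjusted p of the 49 was 0.0511, for Gbp9.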

How the data were processed

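The tools used upstream were STAR 2.7.1a, featureCounts 1.6.2 and DESeq2 1.26.0, with the genome build GRCm38 (mm10), per the submitters' processing notes. The authors deposited whole raw counts for 55450 genes, 1 file per library, and these counts were analysed; the deposited table of normalized values was not used. Neither the annotation nor the strand setting of the counting is stated there. Annotation of exons, overlap and shared sequence came from GENCODE M21, and promoters from RefSeq.

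A filter on low counts (filterByExpr, groups as design, minimum count 10) kept 14641 genes with 99.9% of all counts, and TMM set the library scaling. One quasi-likelihood fit (edgeR 4.0.16, R 4.3.3) over the 8 libraries, with 1 mean per group and 4 residual degrees of freedom, gave 5 contrasts. Benjamini-Hochberg adjustment ran over all genes kept, contrast by contrast, and an adjusted p under 0.05 is a call. The fit was tested on simulated data. Levels are CPM after TMM with the SD of 2 libraries. Each SE was derived from the quasi-likelihood test, as the size of the log2 fold change divided by the square root of the F statistic. Intervals and limits on counts cover counting error only, with 3 counts as the limit for a group at 0. Genes of 3 or fewer counts in a group are given by counts.

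The members, lists and tests were chosen with earlier results of these data known. Values in each library are given for members with a mean log2 CPM of 1 or more and a called log2 fold change of 1 or more in size, and up to 6 genes at that mean level are named from each of 4 further lists by lowest adjusted p. Alternatives were other scalings, filters and thresholds, DESeq2 1.42.0, limma 3.58.1, a replicate block, fits of 4 libraries, leaving out chromosomes or single libraries, and, added after the data were seen, sums of near-identical genes. The values of 1 gene on these further lists are not reported here, and the counts over its list include it.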

Additional observations from a re-analysis of the deposited data

Results flagged for a closer look

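The test of the difference between the lines (edgeR, knockout change minus parental change with TGF-β) passed for 3 of the cell type markers read beside the interferon genes. Csf1r, the receptor of a macrophage growth factor, averaged 6.86 CPM with TGF-β and 30.3 CPM without in knockout cells, and 22.3 CPM with TGF-β and 30.9 CPM without in parental cells, a difference of -1.67 (edgeR adjusted p = 0.000555). Krt7, a keratin of simple epithelia, had a difference of -0.65 (edgeR adjusted p = 0.049), with 87.1 CPM with TGF-β and 66.5 CPM without in knockout cells, and 246 CPM with TGF-β and 120 CPM without in parental cells. Krt8 had a difference of 0.65 (edgeR adjusted p = 0.0464), having been called lower with TGF-β in parental cells at 813 CPM against 1142 CPM.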

How the results depend on the processing

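Of 51 gene calls with 861 values under 18 alternatives, 761 kept direction and call, 100 lost the call and 0 reversed, and 26 calls held throughout. For the test of the difference between the lines, the count of 0 became 1 with upper quartile scaling and 1 with DESeq2. It became 3 with no filter on low counts and 3 with a replicate block. Samd9l was called each time, and Ifit1 and Ifit2 with the last pair of settings. Under the same settings, in that order, the count over all tested genes rose from 352 to 358, 503, 855 and 679. At an adjusted p of 0.01 the count fell from 17 to 11 with TGF-β in parental cells, and from 10 to 3 between the lines with TGF-β. Calls over all tested genes fell from 6228 to 4416 and from 2618 to 1384. DESeq2 called 16 genes with TGF-β in knockout cells and 13 in parental cells, where it called 5395 and 5462 of all tested genes. As each library was left out, the counts ran from 10 to 18 with TGF-β in parental cells, from 14 to 20 in knockout cells, from 3 to 5 and from 2 to 11 between the lines without and with TGF-β, and from 0 to 0 for the difference. With 1 library left in a group, that library is assumed to vary like the other groups. Apart from the test of the difference, calls over all tested genes also fell whenever a library of the contrast was left out.

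Replicate numbers were not treated as pairs, since the labels do not say what a number shares. The deviations of same-numbered libraries correlated at 0.0204 to 0.457 in 6 comparisons. With a replicate block the counts were 17, 20, 6 and 12 with TGF-β in parental and in knockout cells and between the lines without and with TGF-β. Over all tested genes they were 6864, 6691, 2659 and 3305. The causes of these changes were not tested. Irf7, Usp18, Mx2, Rsad2, Isg15, Ifit1, Oas2, Dhx58, Gbp3, Rtp4 and Sp100 had at most 86 counts summed over both libraries of any group. This limits their precision, also where they were not called.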

Other observations

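Genes near the interferon genes (within 200 kb) were read in the same fit, a choice made after values were seen. Around Ifit2, Ifit3 and Ifit1 on chromosome 19, 5 of the 6 other tested genes were called lower with TGF-β in both lines, where 15.9% of all tested genes were, and 2 of the 5 are the Ifit family genes Ifit1bl1 and Ifit3b. The rest are Slc16a12, Lipa and Pank1, none of them a listed interferon-stimulated gene. On the log2 scale Slc16a12 changed by -6.47 in knockout cells and -6.24 in parental cells. The values were -1.30 and -1.20 for Lipa, a lysosomal lipase, and -1.41 and -1.27 for Pank1, a pantothenate kinase. Around Oas1a and Oas2 on chromosome 5, 8 of 12 other genes were lower in both lines, of which 4 are Oas family genes, and 1, Rph3a, was higher (3.79 and 3.62). Beside Oasl2, its neighbour Oasl1 was not called (0.19 and -0.34). Beside Gbp2 and Gbp3 on chromosome 3, Gbp7 had 4 counts with TGF-β and 354 without in knockout cells, and 6 with TGF-β and 173 without in parental cells. Around Parp9 and Dtx3l on chromosome 16, 0 of 7 other genes were called the same way in both lines.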
